A study of Mus musculus with 20 samples.

Results

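Acetylation of histone H3 at lysine 27 (H3K27ac), a mark of active enhancers and promoters, was compared between livers that lacked Cpt2 and livers that kept it. The mice were 9-week-old C57BL/6 males fasted for 24 hours, of 4 genotypes with 2 livers each: wild type (WT), liver-specific Cpt2 knockout (Cpt2 KO), Ppara knockout (Ppara KO), and a double knockout (DKO) without liver Cpt2 and without Ppara. The promoter that drives the deletion of Cpt2 in liver is not given in the sources used here. Cpt2-null livers were the 4 of the Cpt2 KO and DKO genotypes, and Cpt2-intact livers the 4 of the WT and Ppara KO genotypes, so each side held 2 livers without Ppara. The members of the comparison were the 18281 of 65776 consensus H3K27ac intervals that had a peak in all 8 libraries, and 47495 intervals with a peak in 1 to 7 libraries were not tested. An interval took the highest fold enrichment over input that the authors deposited for a peak inside it, the log2 values of a library were set relative to their median, and a call is a Benjamini-Hochberg adjusted p under 0.05 in limma. A quantile normalized version stands beside it. The sample titles number the liver replicates of a genotype 1 and 2, and these were read as separate livers, 1 library each.

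Long-chain fatty acids enter the mitochondrial matrix as acyl-carnitines, and Cpt2, on the inner membrane, turns them back into acyl-CoA for beta-oxidation. In a fasted liver this oxidation supplies ATP and the acetyl-CoA from which ketone bodies are made, and Ppara is the nuclear receptor that turns on the genes of fatty acid oxidation when fatty acids are plentiful. Acetyl-CoA is also the substrate of the enzymes that acetylate histones. Lipogenic and cholesterol genes are driven in the fed state by the SREBP factors and by ChREBP (Mlxipl), and liver identity by a network of factors that includes the HNF, FOXA and C/EBP families.

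Sequence is shown for 6 promoters whose start site lies in an interval called lower in the Cpt2-null livers, chosen after the calls were seen, from the 3 programs described further on: sterol and fatty acid synthesis, and coagulation. Each is the 250 bases before the RefSeq start site (GRCm38.p6, the assembly that mm10 names), 5′ to 3′ on the gene's strand. Capitals mark a match, on either strand, to TCACNCCAC (a sterol element, added after the calls were seen) in the first pair, to CACGTG (an E-box) in the second and to TGTTTAC (a forkhead element) in the third.
Hmgcs1, chr13:119690101-119690350, plus strand: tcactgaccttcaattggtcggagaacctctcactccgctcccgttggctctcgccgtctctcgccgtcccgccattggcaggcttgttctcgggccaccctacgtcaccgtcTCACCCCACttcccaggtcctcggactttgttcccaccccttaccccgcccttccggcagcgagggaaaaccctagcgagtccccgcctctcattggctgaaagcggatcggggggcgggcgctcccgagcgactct
Mlxipl, chr5:135106641-135106890, plus strand: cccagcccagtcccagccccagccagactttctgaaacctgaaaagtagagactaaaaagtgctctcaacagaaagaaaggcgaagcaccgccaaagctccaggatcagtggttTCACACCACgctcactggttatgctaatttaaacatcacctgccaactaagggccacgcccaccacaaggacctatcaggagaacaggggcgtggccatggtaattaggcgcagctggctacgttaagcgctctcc
Insig1, chr5:28071162-28071411, plus strand: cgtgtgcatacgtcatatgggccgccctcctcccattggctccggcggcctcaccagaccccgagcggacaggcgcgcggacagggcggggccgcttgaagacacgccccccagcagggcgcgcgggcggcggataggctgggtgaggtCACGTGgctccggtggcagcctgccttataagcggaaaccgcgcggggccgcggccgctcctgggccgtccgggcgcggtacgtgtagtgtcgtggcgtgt
Sc5d, chr9:42264301-42264550, minus strand: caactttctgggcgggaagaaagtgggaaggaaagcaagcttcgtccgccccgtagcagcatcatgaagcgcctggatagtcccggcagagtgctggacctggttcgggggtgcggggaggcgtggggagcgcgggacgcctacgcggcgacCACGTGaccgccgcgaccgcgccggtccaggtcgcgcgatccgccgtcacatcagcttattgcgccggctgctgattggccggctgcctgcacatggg
F11, chr8:45262032-45262281, minus strand: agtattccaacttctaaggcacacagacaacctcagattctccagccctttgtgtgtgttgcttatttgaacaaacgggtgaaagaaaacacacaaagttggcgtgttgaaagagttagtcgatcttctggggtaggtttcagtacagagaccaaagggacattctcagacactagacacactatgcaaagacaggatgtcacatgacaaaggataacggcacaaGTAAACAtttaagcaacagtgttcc
Klkb1, chr8:45294836-45295085, minus strand: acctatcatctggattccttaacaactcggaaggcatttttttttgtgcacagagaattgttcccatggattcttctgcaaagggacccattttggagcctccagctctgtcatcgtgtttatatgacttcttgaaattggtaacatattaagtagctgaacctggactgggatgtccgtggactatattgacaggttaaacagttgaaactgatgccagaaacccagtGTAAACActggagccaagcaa
The first marked base lies at -137 from the start of Hmgcs1 and -136 of Mlxipl, at -101 of Insig1 and -98 of Sc5d, and at -25 of F11 and -21 of Klkb1. A match is a string of letters in a window, not a shown binding site, and the shares below were not tested against each other. The sterol element stood in 1.6% of 438 promoters in intervals called lower, 1.45% of 275 in intervals called higher, 1.07% of 7107 in tested intervals that were not called and 1.19% of all 21263 promoter windows, which run from 250 bases before to 50 after the start. The same shares were 8.9%, 7.27%, 10.8% and 7.84% for the E-box, and 2.97%, 5.09%, 2.76% and 3.01% for the forkhead element. AGGTCANAG, the start of the DR1 element that PPARs bind, stood in 1.83% of promoters called lower, 0.364% called higher and 1.56% not called. The TGACGTCA cAMP element, TGANTCA (AP-1), TGATGNAAT (ATF4 with C/EBP), TGACNNNGC (antioxidant, which can overlap AP-1) and CAAAGTCCA (HNF4-like) stood in 1.83%, 4.79%, 0%, 15.3% and 0.228% of promoters called lower, 2.91%, 6.55%, 0%, 12.4% and 0.727% of those called higher, and 3.49%, 4.64%, 0.422%, 15% and 0.492% of those not called.

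H3K27ac was higher in the Cpt2-null livers at 896 intervals (4.9% of those tested) and lower at 1349 (7.38%). Quantile normalization gave 1016 higher (5.56%) and 1116 lower (6.1%), and 1998 intervals were called in the same direction by both. Without centring the split turned to 3504 higher and 432 lower, because the median difference over all intervals was then 0.25 on the log2 scale. All differences below are therefore relative to the median interval of a library. The library medians themselves differed: the median deposited fold was 7.42 to 8.21 in the Cpt2-null libraries and 6.69 to 7.17 in the intact ones.

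Other library features moved with Cpt2 state too. The smallest peak width was 217 to 223 bases in the Cpt2-null and 198 to 210 bases in the intact libraries, and with that width as a covariate no interval was called by limma (1426 had an unadjusted p under 0.05), so width and Cpt2 state cannot be told apart here. The count also rested on single libraries: it was 691 without Cpt2 KO replicate 1, 996 and 1046 without Ppara KO replicates 2 and 1, 1078 and 1309 without DKO replicates 2 and 1, 1217 without Cpt2 KO replicate 2 and 1370 without WT replicate 2. Wide intervals were called lower more often: 11.2% of those of 3661 bases and more and 4.12% of those up to 1136 bases, against 3.18% and 5.08% called higher. Broad intervals are common over strongly active liver genes, and the median width of a gene's strongest interval was 1939 bases over all genes.

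The intervals that gained and lost the mark lay in different places. Of the 1349 called lower, 37.4% lay near a start site (within 1 kb) and 78.5% had their middle inside a protein-coding gene body, against 27.3% and 54.5% of the 896 called higher and 39.98% and 70.7% of the 16036 not called. Intervals with a middle over 10 kb from any gene body made up 24.2% of those higher, 9.04% of those lower and 12.9% of those not called. By these shares gains were more often distal and far from genes, and losses more often inside them.

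At called intervals the median Cpt2 difference was larger in livers with Ppara. At the intervals called higher the median log2 difference was 0.92 between Cpt2 KO and WT and 0.46 between DKO and Ppara KO. At those called lower it was -0.96 and -0.62. The direction was the same in both pairs, which share no liver, at 862 of 896 and 1313 of 1349 intervals, a count that selection on the sum of both pairs raises. Over all 18281 intervals the 2 differences correlated with r = 0.34, as a description. Tested one by one, Cpt2 KO against WT gave 2469 calls (13.5%), from 167 without Cpt2 KO replicate 1 to 2686 without WT replicate 1, and 450 and 937 without WT replicate 2 and Cpt2 KO replicate 2. DKO against Ppara KO gave 1 call (0.00547%; 2569 at an unadjusted p under 0.05), an interval at Slc2a9. The difference between the pairs themselves was called at 1 interval (0.00547%; 2771 at an unadjusted p under 0.05), and that call was lost when any library except WT replicate 1 was left out. The WT livers stood apart: on the first principal component, with 39.4% of the variance, they scored 0.472 and 0.68, the Ppara KO livers -0.063 and -0.04, the Cpt2 KO livers -0.251 and -0.113, and the DKO livers -0.339 and -0.345. Both WT livers were the 2 highest of 8 at 817 of the 1349 intervals called lower (60.6%) and the 2 lowest at 598 of the 896 called higher (66.7%).

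**Figure D1:**
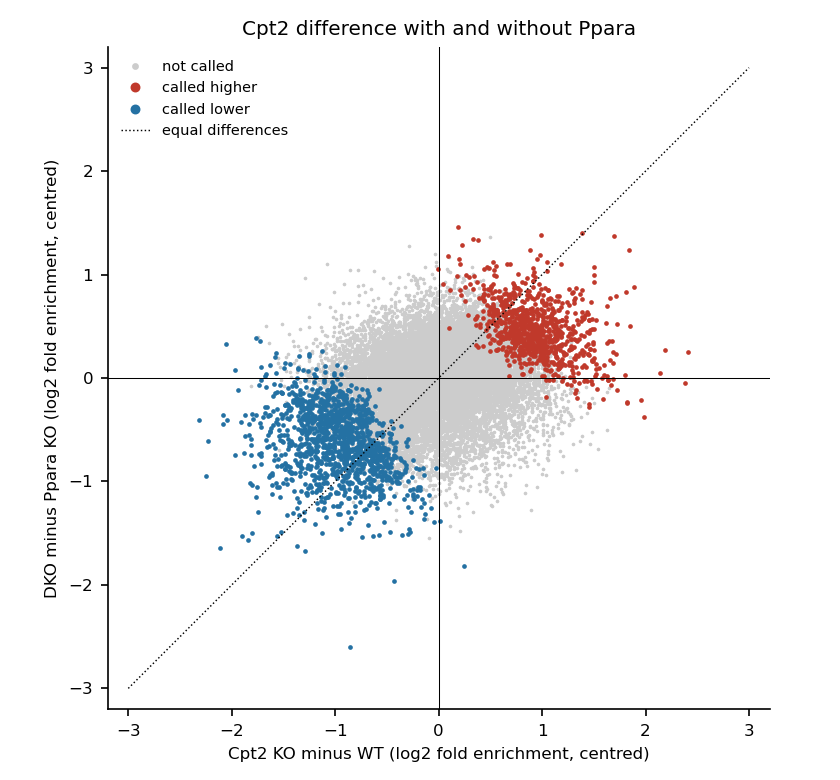
Each point is 1 of 18281 H3K27ac intervals, with the centred log2 difference between Cpt2 KO and WT livers on the horizontal axis and between DKO and Ppara KO livers on the vertical axis; colours mark intervals called between Cpt2-null and Cpt2-intact livers, and the dotted line marks equal differences. Called points lie mostly closer to the horizontal axis than the dotted line does, with medians of 0.92 against 0.46 for higher calls and -0.96 against -0.62 for lower ones.

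The targeted gene came first. Cpt2 has its start site in an interval called in every library, chr4:107920649-107924008, with folds of 11.5 and 16.9 (WT), 8.75 and 9.8 (Ppara KO), 18.7 and 23.2 (Cpt2 KO) and 9.33 and 12.2 (DKO). It was not called (centred log2 difference 0.12, adjusted p = 0.667). A second interval, chr4:107901663-107903225, lies 1538 bases outside the gene. Its folds were 7.77 and 9.87 (WT) and 4.78 and 5.52 (Ppara KO), with no peak in Cpt2-null livers. The deleted part of Cpt2 is not given in the sources used here, so neither value measures the deletion. Ppara was lower at 2 of its 6 tested intervals within 10 kb of its body. At chr15:85754441-85756430 the folds were 14.6 and 14.8 (WT), 13.5 and 8.17 (Ppara KO), 9.04 and 7.86 (Cpt2 KO) and 4.33 and 7.05 (DKO). Ppara differed by -1.13 ± 0.22 on the centred log2 scale (SE; adjusted p = 0.00894). At the other the difference was -0.69 (not called when any library except WT 2 was left out). At the first, both DKO livers were below the other 6, and 1 Ppara KO liver overlapped the Cpt2 KO livers. Its start-site interval, chr15:85730896-85741526, was not called, with a difference of 0.25 (adjusted p = 0.212).

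The intervals were ranked by the centred difference among the 1684 that were called under both scalings and lay within 10 kb of a protein-coding gene (673 higher, at 617 genes, and 1011 lower, at 855 genes; 38 genes had both). The genes of the first 3 intervals each way were left out, and the next 12 genes each way follow. Nearest gene is a label of position, and no expression was measured. Being ranked by this difference, the values are a description.

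Ddb2, Timeless and E2f7, of DNA repair, replication and the cell cycle, were among the 12 genes with gained acetylation. In the list of p53 targets and cell cycle genes read further on, 0 of 13 measured genes were called by their strongest interval. Ddb2 encodes the damage-binding subunit that recognises ultraviolet lesions and is a p53 target. Its interval, chr2:91241970-91243786, 5746 bases from the gene, had folds of 5.2 and 4.17 (WT), 7 and 5.33 (Ppara KO), 17.3 and 18.5 (Cpt2 KO) and 11.6 and 14.8 (DKO). Ddb2 differed by 1.26 ± 0.20 on the centred log2 scale (SE; adjusted p = 0.00493). All 4 Cpt2-null livers were above all 4 intact ones, in both Ppara states. Timeless, a replication fork protein, had folds of 9.43 and 10.9 (WT), 16.1 and 6.58 (Ppara KO), 24.5 and 22.4 (Cpt2 KO) and 27 and 31.3 (DKO). Timeless differed by 1.08 ± 0.24 on the centred log2 scale (SE; adjusted p = 0.0151). E2f7, a repressor of cell cycle genes, with its interval 6007 bases from the gene, had 6.05 and 5.66 (WT), 13.3 and 13.1 (Ppara KO), 23.5 and 18.8 (Cpt2 KO) and 20.9 and 26.7 (DKO). E2f7 differed by 1.08 ± 0.16 on the centred log2 scale (SE; adjusted p = 0.0045). In both, the Cpt2-null livers were again all higher, and at E2f7 the WT livers lay well below the Ppara KO livers.

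Pdia4 encodes a protein disulfide isomerase of the endoplasmic reticulum. Its interval lay 7445 bases from the gene with folds of 6 and 3.91 (WT), 16.9 and 19 (Ppara KO), 28.8 and 23.1 (Cpt2 KO) and 25.9 and 27.8 (DKO). Pdia4 differed by 1.23 ± 0.18 on the centred log2 scale (SE; adjusted p = 0.00453). The pairs gave 2.19 between Cpt2 KO and WT and 0.27 between DKO and Ppara KO, and the test of the difference between the pairs gave an adjusted p of 0.0774. The largest gain of the 12 was at 2610001J05Rik, near a start site, with folds of 5.38 and 6 (WT), 11.6 and 12 (Ppara KO), 22.7 and 23.8 (Cpt2 KO) and 25.1 and 26.9 (DKO). 2610001J05Rik differed by 1.32 ± 0.15 on the centred log2 scale (SE; adjusted p = 0.00187). The order WT, Ppara KO, Cpt2-null held in every liver. Corin, the protease that activates natriuretic peptides, had folds of 4.12 and 6.05 (WT), 5.62 and 6.56 (Ppara KO), 14.5 and 14.8 (Cpt2 KO) and 13.9 and 13.7 (DKO). Corin differed by 1.10 ± 0.18 on the centred log2 scale (SE; adjusted p = 0.00535). Its 4 Cpt2-null livers lay between 13.7 and 14.8 in both Ppara states.

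The other 6 genes with gains were Sox5 (a transcription factor of cartilage and neurons), Mrpl45 (a protein of the mitochondrial ribosome), Synpo (an actin-binding protein), 9530077C05Rik, Serinc5 (a membrane protein of the serine incorporator family) and Rbms1 (an RNA-binding protein). Their centred log2 differences ran from 1.08 at Rbms1 to 1.19 at Sox5. At Sox5 the pairs gave 0.99 between Cpt2 KO and WT and 1.38 between DKO and Ppara KO. At Synpo the Cpt2 KO livers were highest, with folds of 30.2 and 40.4, while the DKO livers at 11.2 and 15.5 overlapped the Ppara KO livers at 4.56 and 12.1. Of the 12 gained intervals, 2 lay near a start site.

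The 12 ranked losses ran from -1.42 to -1.71 after centring, against 1.08 to 1.32 for the gains. Without centring the same losses ran from -1.15 to -1.44 and the gains from 1.34 to 1.59, so which were larger turned with the scaling. Rassf8, a Ras-association protein at cell junctions, had the largest loss of the 12, in an interval of 10985 bases, chr6:145754466-145765450. Its folds were 22.5 and 23.1 (WT), 11.2 and 13.9 (Ppara KO), 7.18 and 7.66 (Cpt2 KO) and 4.7 and 5.75 (DKO). Rassf8 differed by -1.71 ± 0.17 on the centred log2 scale (SE; adjusted p = 0.000855). WT was highest, Ppara KO intermediate, and the Cpt2-null livers lowest with no overlap. Lrp6, a co-receptor of Wnt ligands, had folds of 12.9 and 9.66 (WT), 9.99 and 14 (Ppara KO), 4.93 and 3.96 (Cpt2 KO) and 5.14 and 5.06 (DKO). Lrp6 differed by -1.54 ± 0.20 on the centred log2 scale (SE; adjusted p = 0.00362). The pairs gave -1.56 between Cpt2 KO and WT and -1.52 between DKO and Ppara KO, and WT and Ppara KO livers overlapped. Gldc, the decarboxylase of the glycine cleavage system, lost the mark over an interval of 9262 bases at its start site, with folds of 20.5 and 30.1 (WT), 27.2 and 27 (Ppara KO), 9.2 and 8.11 (Cpt2 KO) and 15.4 and 12.2 (DKO). Gldc differed by -1.52 ± 0.16 on the centred log2 scale (SE; adjusted p = 0.00103). Both Cpt2 KO livers were lowest and all 4 intact livers were above 20.

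Clu, which encodes the secreted chaperone clusterin, had folds of 19.5 and 22.4 (WT), 11 and 12.3 (Ppara KO), 5.63 and 8.7 (Cpt2 KO) and 6.74 and 7.29 (DKO). Clu differed by -1.42 ± 0.19 on the centred log2 scale (SE; adjusted p = 0.00381), and H3K4me1, the enhancer mark measured in the same genotypes, differed by -0.72 there. Nat8, an N-acetyltransferase of cysteine conjugates, had a lower interval 9259 bases from its body with folds of 22.3 and 19 (WT), 20.5 and 17.5 (Ppara KO), 7.24 and 13.2 (Cpt2 KO) and 5.63 and 9.66 (DKO). Nat8 differed by -1.48 ± 0.23 on the centred log2 scale (SE; adjusted p = 0.00493); its near-identical neighbours make the assignment uncertain. In both genes the 4 Cpt2-null livers lay below the 4 intact ones. Otud1, a deubiquitinase, had folds of 28.2 and 40.6 (WT), 12.2 and 18.3 (Ppara KO), 8.5 and 8.33 (Cpt2 KO) and 9.18 and 15.9 (DKO). Otud1 differed by -1.42 ± 0.18 on the centred log2 scale (SE; adjusted p = 0.00345). The DKO livers overlapped the Ppara KO livers, and the pairs gave -2.23 between Cpt2 KO and WT and -0.61 between DKO and Ppara KO.

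The remaining 6 were Ppp2r5e (a regulatory subunit of protein phosphatase 2A), Lin7a (a scaffold of cell polarity), Ndst1 (heparan sulfate sulfation), Tmem104, Cdc42ep4 (a Cdc42 effector) and Arhgap35 (a GTPase activator), with centred log2 differences from -1.42 to -1.65. At Lin7a the folds were 16.8 and 21.1 (WT), 5.18 and 9.2 (Ppara KO), 5.08 and 4.21 (Cpt2 KO) and 5.1 and 3.86 (DKO), so that the WT livers stood alone and the lower Ppara KO liver was close to the Cpt2-null range of 3.86 to 5.10. Among the 24 ranked genes the deposited folds of the groups overlapped at Synpo, Ndst1 and Otud1 and at no other, as the ranking favours. Over all called intervals the groups did not overlap at 582 of 896 higher (65.0%) and 766 of 1349 lower (56.8%). H3K4me1 was measured in all 8 libraries at 13 of the 24: it was lower at all 9 of the genes with losses and higher at 3 of the 4 with gains, Synpo being the exception at -0.22.

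**Figure D2:**
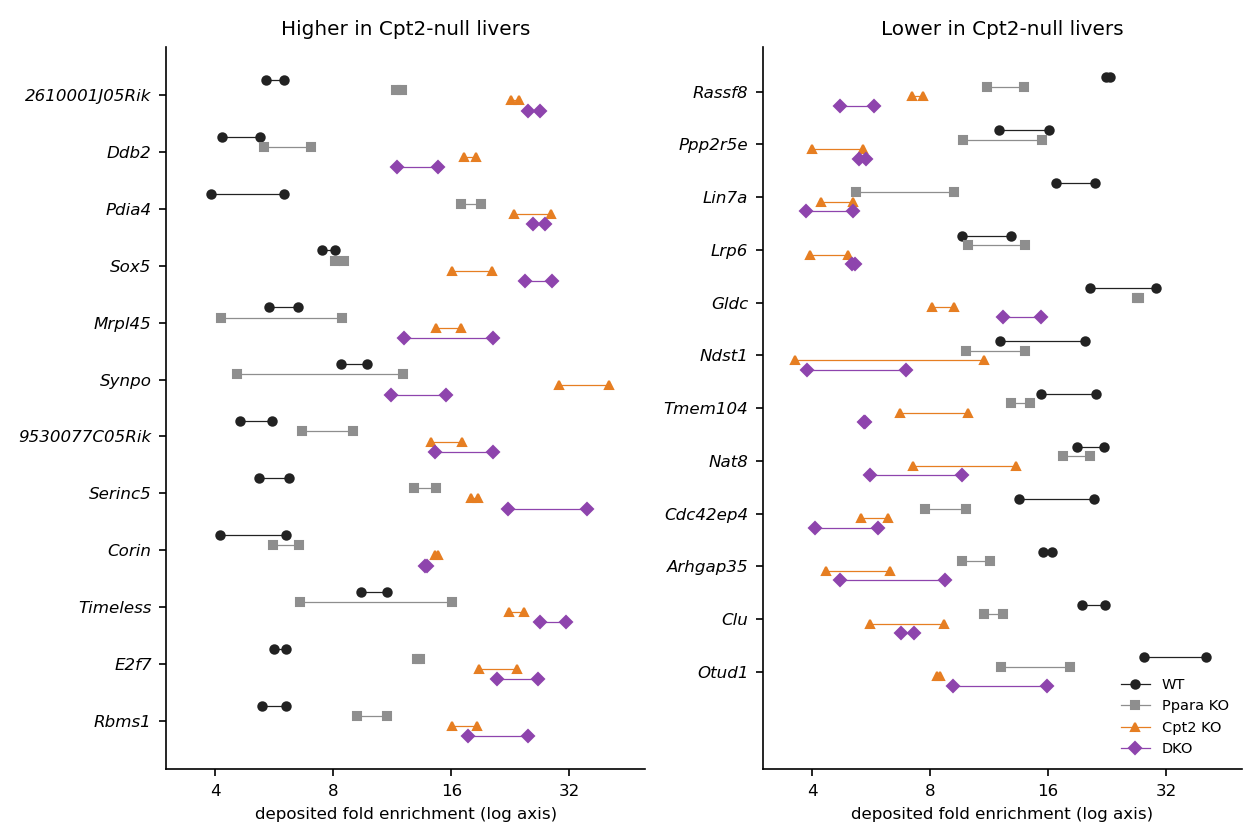
Deposited H3K27ac fold enrichment (horizontal, log axis) in each of 8 livers at the 12 ranked genes with gains (left) and the 12 with losses (right); each symbol is 1 liver and a line joins the 2 of a genotype. The Cpt2 KO and DKO livers lie to the right at the gained genes and to the left at the lost ones, with overlap of the groups at Synpo, Ndst1 and Otud1.

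Some genes had several called intervals. Scarb1, the HDL receptor, was lower at 4 of its 5 tested intervals, Macrod1 at 4 of 5, Pcdh1 at 4 of 5, Stard13 at 4 of 9, Rnf144b at 4 of 10, Prkce at 4 of 15 and Arid5b at 5 of 20. Arid5b was also higher at 2 intervals and Prkce at 1. Higher at 3 intervals each were Zfp445 (of 5), Fermt2 and Sgms1 (of 8 each) and Itga9 (of 11). These genes were singled out after their values were seen.

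To describe functions, 38 gene lists with 705 genes were read against all genes, and each gene stood for its strongest interval, the one with the highest mean log2 fold within 10 kb of its body. Of the 8985 genes with a tested interval, 409 were higher (4.55%) and 577 lower (6.42%) after centring, and 489 (5.44%) and 472 (5.25%) after quantile normalization; the median difference of all genes was 0.0066. Of the 526 list genes with a tested interval, 11 were higher (2.09%) and 51 lower (9.70%) after centring, and 78 higher and 14 lower without it. Over all 8985 genes, 1751 were higher and 141 lower without centring. The lists hold liver genes, and most lists had a median interval width above the 1939 bases of all genes. How far their counts moved with width was not tested. Both WT livers were the 2 highest at 36 of the 51 (70.6%). The Cpt2-null and intact livers did not overlap at 28 of the 51 lower (54.9%) and 9 of the 11 higher (81.8%). Without centring the median of all genes was 0.27. Relative to 0 the medians were then 0.077 for lipogenesis (which flips), -0.20 for cholesterol, -0.082 for bile acids, -0.019 for hepatocyte transcription factors and -0.074 for coagulation, with 1, 1, 1, 1 and 3 members lower. No list was tested as a set. A further 90 called intervals, at 73 list genes, were not the strongest of their gene (17 higher and 73 lower), and 21 of them were called without each library in turn. The 17 that were higher and some of the lower ones are named below, chosen after their values were seen. Beside a call, the libraries without which it was lost are written WT 1, WT 2 and so on.

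**Figure D3:**
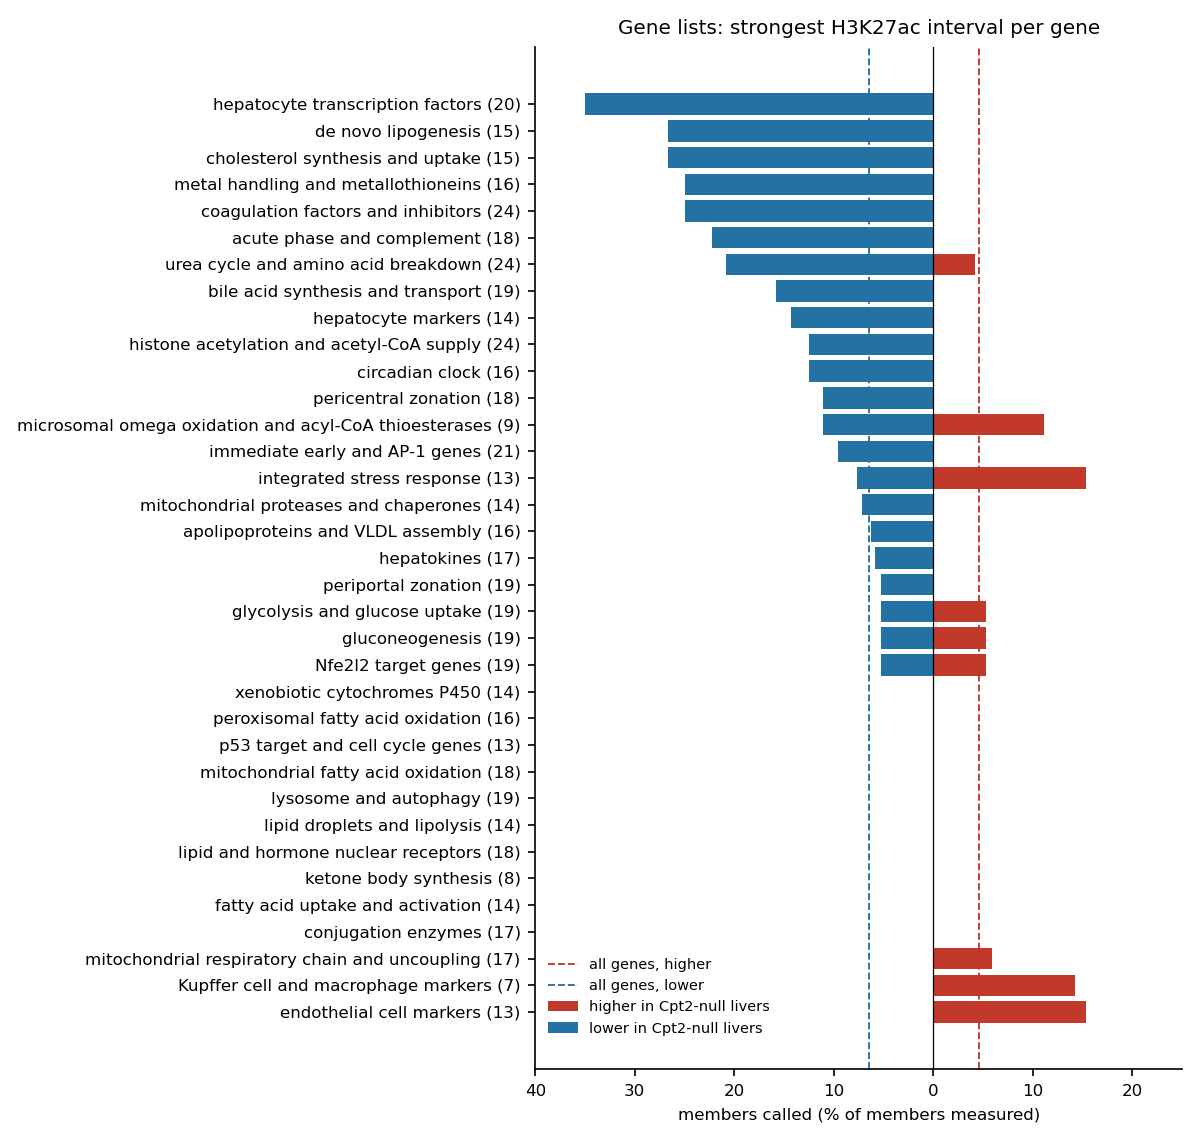
Share of the measured members of each gene list (number in parentheses) whose strongest H3K27ac interval was called higher (red, right) or lower (blue, left) in Cpt2-null livers; dashed lines give the share over all 8985 genes, 4.55% and 6.42%. The bars extend mostly to the left, longest for hepatocyte transcription factors (7 of 20), and lists of fatty acid oxidation have none.

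No gene of fatty acid oxidation itself was called by its strongest interval. None of 18 genes of mitochondrial oxidation was called (1 had an unadjusted p under 0.05), and their differences ran from -0.22 to 0.46, the highest being Slc22a5, the plasma membrane carnitine transporter. Over all 8985 genes, 2508 had an unadjusted p under 0.05 in limma, the background for each unadjusted count of list members here and below. Cpt1a, the outer-membrane partner of Cpt2 and the rate-limiting step, differed by 0.055 ± 0.12 (SE). None of 16 peroxisomal genes was called (1 unadjusted: Crat, carnitine acetyltransferase, at 0.35 ± 0.14). None of 8 genes of ketone body synthesis was called (1 unadjusted: Acat1, which joins 2 acetyl-CoA, at -0.43, adjusted p = 0.0637). Weaker intervals were called at Eci2, an enoyl-CoA isomerase (higher, 0.57, not called when any library except WT 1 was left out), and lower at Scp2, of peroxisomal thiolysis (-0.87, not called without Cpt2 KO 1, Ppara KO 1 or DKO 2) and at another of its intervals (-0.61, not called when any library except DKO 1 was left out). A p that misses the threshold with 4 livers a side does not show that these genes were alike.

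Without centring 2 mitochondrial and 2 peroxisomal genes were called higher, beside 1751 of all 8985 genes. Uptake and activation of fatty acids (14 genes, 3 unadjusted) and lipid droplets and lipolysis (14 genes, 4 unadjusted) also had no member called by its strongest interval. Their lowest p values were at Acsl3, an acyl-CoA synthetase, at -0.58 (adjusted p = 0.0577), and at the droplet protein gene Cidec at 0.51 (adjusted p = 0.0576). Por, the reductase that gives electrons to P450 enzymes, was higher at a weaker interval (0.69, not called without Cpt2 KO 1, Ppara KO 2 or DKO 1). Cidec had another interval that was called lower, -0.85. Among 9 omega-oxidation and thioesterase genes, Acot2, a mitochondrial acyl-CoA thioesterase, was higher. Its folds were 13.5 and 17.2 (WT), 9.5 and 9.38 (Ppara KO), 27.1 and 29.8 (Cpt2 KO) and 16.2 and 22 (DKO). Acot2 differed by 0.69 ± 0.15 on the centred log2 scale (SE; adjusted p = 0.0149; not called without Cpt2 KO 2 or DKO 2). The pairs gave 0.68 between Cpt2 KO and WT and 0.69 between DKO and Ppara KO, and the level was lower without Ppara; its near-identical neighbours Acot1 and Acot3 make read assignment uncertain. Cyp4f15, a fatty acid hydroxylase, was lower, with folds of 21 and 30.2 (WT), 24.5 and 20.8 (Ppara KO), 10.9 and 9.27 (Cpt2 KO) and 20 and 21.2 (DKO). Cyp4f15 differed by -0.995 ± 0.15 on the centred log2 scale (SE; adjusted p = 0.0046), and here the 2 Cpt2 KO livers stood below the other 6. Ucp2, an uncoupling protein family member of the inner membrane, was the 1 gene called of 17 of the respiratory chain and uncoupling. Its folds were 15.3 and 13.2 (WT), 11.1 and 14.6 (Ppara KO), 25.8 and 23.6 (Cpt2 KO) and 22.3 and 26.6 (DKO). Ucp2 differed by 0.60 ± 0.15 on the centred log2 scale (SE; adjusted p = 0.0225; not called when any library except WT 1 or Ppara KO 2 was left out), with all Cpt2-null livers above all intact ones, and a weaker interval was higher too (0.72, not called without Cpt2 KO 1 or Ppara KO 2).

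Of 15 measured lipogenic genes 4 were lower and none higher (also 4 after quantile normalization), and 8 had at least 1 interval called lower (over all genes, 11.4% had one called lower and 6.92% one called higher). These 15 genes had 45 tested intervals, against 15877 at all 8985 genes, and more intervals give a gene more chances of a call. The list's median difference was -0.19, -0.53 between Cpt2 KO and WT and -0.16 between DKO and Ppara KO. The count was 2 without WT replicate 2, Cpt2 KO replicate 1, Ppara KO replicate 1 or DKO replicate 2. Fasn, the fatty acid synthase, had folds of 20.3 and 32.2 (WT), 7.75 and 13.7 (Ppara KO), 8.29 and 11.8 (Cpt2 KO) and 12.2 and 12.5 (DKO). Fasn differed by -0.82 ± 0.21 on the centred log2 scale (SE; adjusted p = 0.0237; not called without WT 2, Cpt2 KO 1, Ppara KO 2 or DKO 2). Only the WT livers stood apart, and the pairs gave -1.60 between Cpt2 KO and WT and -0.053 between DKO and Ppara KO. Mid1ip1, an activator of acetyl-CoA carboxylase, had folds of 25.5 and 42.6 (WT), 15.1 and 16 (Ppara KO), 12.6 and 13.5 (Cpt2 KO) and 13.6 and 15.8 (DKO). Mid1ip1 differed by -0.98 ± 0.16 on the centred log2 scale (SE; adjusted p = 0.00493). Again both WT livers were far above the other 6, which lay between 12.6 and 16.

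Mlxipl (ChREBP), the glucose-responsive factor whose promoter is printed above, had folds of 13.3 and 16.5 (WT), 13.2 and 10.9 (Ppara KO), 8.45 and 9.7 (Cpt2 KO) and 6.56 and 13 (DKO). Mlxipl differed by -0.81 ± 0.21 on the centred log2 scale (SE; adjusted p = 0.0251; not called without WT 2, Cpt2 KO 1, Ppara KO 1 or DKO 1). Acss2, which makes acetyl-CoA from acetate in the cytosol and nucleus, had 10.9 and 13.5 (WT), 13.8 and 12.5 (Ppara KO), 10.8 and 7.53 (Cpt2 KO) and 8.8 and 9.4 (DKO). Acss2 differed by -0.75 ± 0.18 on the centred log2 scale (SE; adjusted p = 0.0195; not called without Cpt2 KO 2, Ppara KO 1 or DKO 2). At Acss2 no Cpt2-null liver reached an intact one and the WT and Ppara KO livers overlapped, unlike at Fasn. Srebf1, the sterol-regulatory factor of lipogenesis, was lower at a start-site interval that is not its strongest, chr11:60205182-60211694, with folds of 22.2 and 18.5 (WT), 5.83 and 7.5 (Ppara KO), 4.14 and 7.5 (Cpt2 KO) and 6.8 and 6 (DKO). Srebf1 differed by -1.22 ± 0.23 on the centred log2 scale (SE; adjusted p = 0.00881). The pairs gave -2.09 between Cpt2 KO and WT and -0.36 between DKO and Ppara KO; the difference between the pairs had an adjusted p of 0.138. Intervals of Acaca (-0.90, not called without Cpt2 KO 1, Ppara KO 1 or DKO 2), Elovl6 (-0.76, not called when any library except WT 1 or Cpt2 KO 2 was left out) and Gpam (-0.95), of fatty acid carboxylation, elongation and glycerolipid synthesis, were lower too.

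The cholesterol genes showed the lowest median of the metabolic lists, -0.47, with 14 of 15 measured genes below 0, 4 called lower (also 4 after quantile normalization) and none higher. The count was 2 without Cpt2 KO replicate 1. The median was -0.57 with Ppara and -0.29 without. Fdft1 (squalene synthase) had folds of 22 and 29.9 (WT), 13.8 and 16 (Ppara KO), 16.2 and 15.9 (Cpt2 KO) and 7.71 and 13.9 (DKO). Fdft1 differed by -0.87 ± 0.17 on the centred log2 scale (SE; adjusted p = 0.00962). The pairs gave -0.90 between Cpt2 KO and WT and -0.83 between DKO and Ppara KO. Insig1, the anchor that holds SREBP in the endoplasmic reticulum, had folds of 19.4 and 25.7 (WT), 16.2 and 20.9 (Ppara KO), 11.3 and 10.9 (Cpt2 KO) and 17.3 and 20 (DKO). Insig1 differed by -0.76 ± 0.14 on the centred log2 scale (SE; adjusted p = 0.00856). Here the 2 Cpt2 KO livers were lowest and the DKO livers lay within the range of the Ppara KO livers.

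Srebf2, the main factor of sterol synthesis, had folds of 16.4 and 25.7 (WT), 13 and 17.2 (Ppara KO), 10.1 and 11.4 (Cpt2 KO) and 15.2 and 14.6 (DKO). Srebf2 differed by -0.74 ± 0.17 on the centred log2 scale (SE; adjusted p = 0.018; not called without WT 2, Cpt2 KO 1, Ppara KO 2 or DKO 2). Hmgcs1, the cytosolic HMG-CoA synthase, had 22.2 and 31 (WT), 18.2 and 16.3 (Ppara KO), 15.8 and 15.3 (Cpt2 KO) and 18.4 and 19.6 (DKO). Hmgcs1 differed by -0.57 ± 0.14 on the centred log2 scale (SE; adjusted p = 0.0228; not called when any library except WT 1, Ppara KO 2 or DKO 1 was left out). Between DKO and Ppara KO the 2 genes differed by -0.32 and -0.17, and at Hmgcs1 both DKO livers lay above both Ppara KO livers in fold. Sc5d, of the last steps of synthesis, was lower at its start-site interval, which was not its strongest. The folds there were 12 and 27.1 (WT), 11 and 14.9 (Ppara KO), 9.04 and 9.67 (Cpt2 KO) and 12.1 and 7.86 (DKO). Sc5d differed by -0.94 ± 0.24 on the centred log2 scale (SE; adjusted p = 0.0243; not called when any library except WT 1, Cpt2 KO 2 or DKO 1 was left out), 1 WT liver standing far above the rest.

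Bile acid genes had a median of -0.35, 16 of 19 below 0, and 3 called lower (3 after quantile normalization, 1 when Ppara KO replicate 2 was left out and 5 when Cpt2 KO replicate 1 was). In contrast to lipogenesis, the median was lower without Ppara, -0.38 against -0.19 with it, a difference that was not tested. Akr1d1, the steroid reductase of bile acid synthesis, had folds of 13.6 and 17.2 (WT), 17.4 and 16.1 (Ppara KO), 11.6 and 12 (Cpt2 KO) and 7.88 and 12.5 (DKO). Akr1d1 differed by -0.83 ± 0.17 on the centred log2 scale (SE; adjusted p = 0.0116). Slco1a1, a sinusoidal uptake carrier, had 20.9 and 8.25 (WT), 13.2 and 20.4 (Ppara KO), 7.2 and 5.35 (Cpt2 KO) and 8.49 and 8.03 (DKO). Slco1a1 differed by -1.30 ± 0.28 on the centred log2 scale (SE; adjusted p = 0.0135; not called without Ppara KO 2), with the WT livers far apart from each other. Slco1b2, a carrier of the same family, was lower at -0.81 (not called without Cpt2 KO 2, Ppara KO 1, Ppara KO 2 or DKO 2). Cyp27a1, the mitochondrial sterol hydroxylase, lost the mark inside its body, at an interval that was not its strongest. The folds there were 17.4 and 15.9 (WT), 9.81 and 12.5 (Ppara KO), 5.17 and 7.8 (Cpt2 KO) and 8 and 6.4 (DKO). Cyp27a1 differed by -1.28 ± 0.21 on the centred log2 scale (SE; adjusted p = 0.00568), and all 4 Cpt2-null livers were below the intact ones. Nr1h4, the bile acid receptor FXR, was lower at a weaker interval in its body, -0.95, with all Cpt2 KO livers below WT and all DKO livers below Ppara KO.

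**Figure D4:**
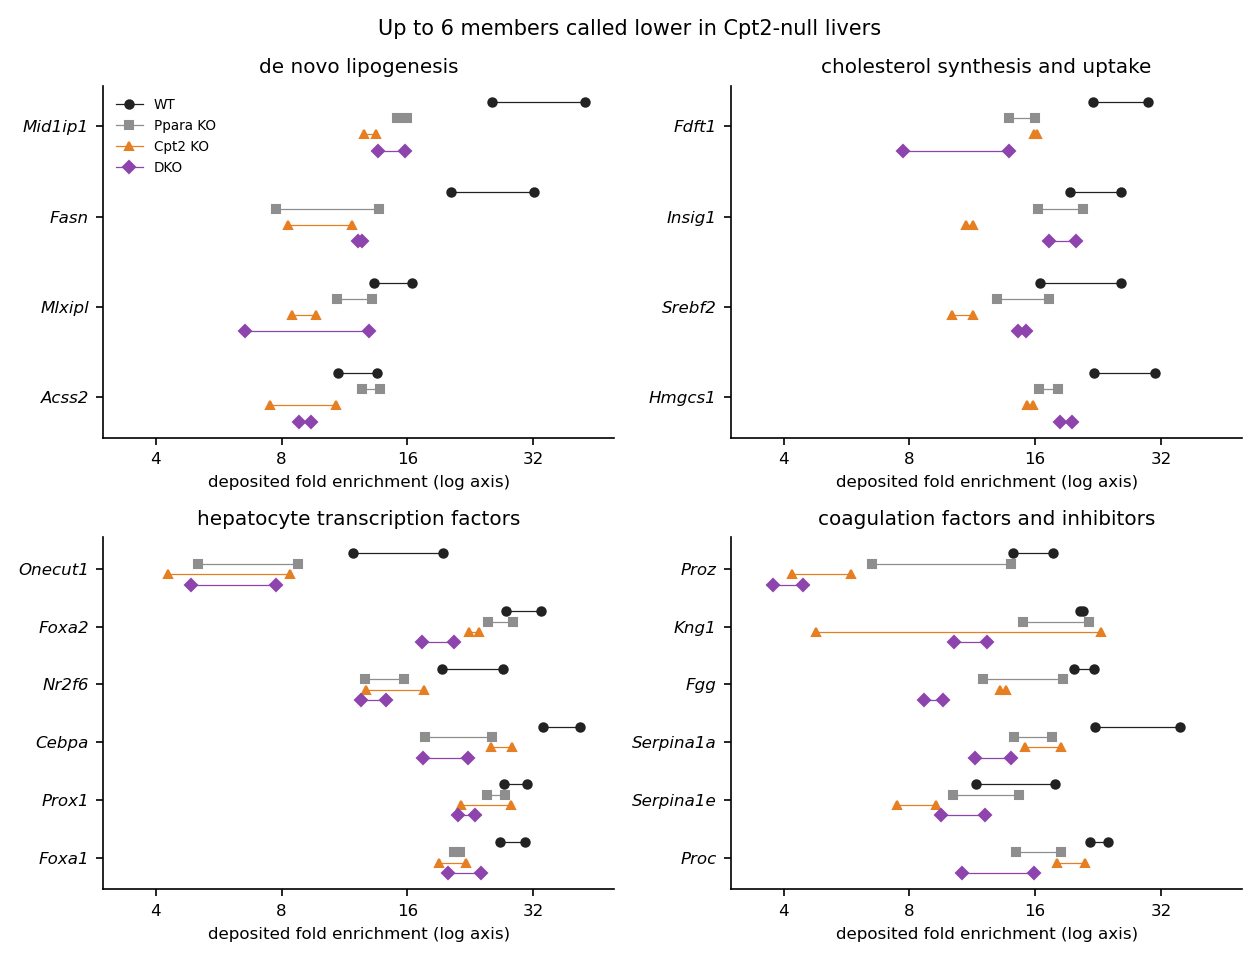
Deposited H3K27ac fold enrichment (horizontal, log axis) in each liver for up to 6 members called lower in each of 4 lists, ordered from the largest loss; each symbol is 1 liver and a line joins the 2 of a genotype. WT livers lie at the right in most genes. Both lie right of every other liver at Fasn, Mid1ip1, Onecut1, Fdft1, Hmgcs1, Cebpa and Foxa1, among others. At Fgg and Foxa2 the DKO livers also lie left of the Ppara KO livers.

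Hepatocyte transcription factors had the highest share of lower members, 7 of 20, with none higher. That count moved with the processing: it was 3 after quantile normalization, 2 without the variance trend, 1 without Cpt2 KO replicate 1 or DKO replicate 1, 2 without WT replicate 2 or Ppara KO replicate 2, and 3 without Ppara KO replicate 1 or DKO replicate 2. The median of the list was -0.29, and the median width of its intervals was 5634 bases. Foxa2, a forkhead factor of liver enhancers, had folds of 27.6 and 33.4 (WT), 24.9 and 28.6 (Ppara KO), 22.5 and 23.8 (Cpt2 KO) and 17.4 and 20.7 (DKO). Foxa2 differed by -0.71 ± 0.12 on the centred log2 scale (SE; adjusted p = 0.00586). The 2 groups did not overlap and the loss was present in both pairs, -0.62 between Cpt2 KO and WT and -0.80 between DKO and Ppara KO. Onecut1 (HNF6) had 11.9 and 19.5 (WT), 5.06 and 8.77 (Ppara KO), 4.29 and 8.36 (Cpt2 KO) and 4.86 and 7.74 (DKO). Onecut1 differed by -0.999 ± 0.26 on the centred log2 scale (SE; adjusted p = 0.0275; not called without WT 2, Cpt2 KO 1, Ppara KO 2 or DKO 1), with the WT livers alone above the other 6. Lower by smaller amounts were Nr2f6 (-0.62, not called when any library except WT 1, Cpt2 KO 2 or Ppara KO 2 was left out), Cebpa (-0.56, not called without WT 2, Cpt2 KO 1, Ppara KO 2 or DKO 1), Prox1 (-0.50, not called when any library except WT 1 or Cpt2 KO 2 was left out) and Foxa1 (-0.47, not called when any library except WT 2 was left out). Intervals of 12 of the 20 genes were called lower when any assigned interval counted, among them one in the body of Hnf4a, the central factor of the network, at -0.78 (not called when any library except WT 1, Cpt2 KO 2 or DKO 1 was left out), and none was called higher. The 20 genes had 65 tested intervals, while all 8985 genes had 15877, with 11.4% of genes called lower by this count.

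Of 24 coagulation genes, all of which had a tested interval, 6 were lower and none higher (4 after quantile normalization, 3 without WT replicate 1, Cpt2 KO replicate 2, either Ppara KO replicate or DKO replicate 1). The list's median was -0.34, with 20 of 24 below 0, -0.42 between Cpt2 KO and WT and -0.42 between DKO and Ppara KO. Proz, the vitamin K-dependent protein Z that inhibits factor Xa with its partner, had the largest loss among the strongest intervals of list genes, with folds of 14.1 and 17.6 (WT), 6.5 and 14 (Ppara KO), 4.18 and 5.8 (Cpt2 KO) and 3.78 and 4.45 (DKO). Proz differed by -1.71 ± 0.23 on the centred log2 scale (SE; adjusted p = 0.00381). Proz was among the genes left out of the ranking above and is named here through its list. Fgg, the fibrinogen gamma chain, had folds of 22.1 and 19.8 (WT), 12 and 18.7 (Ppara KO), 13.2 and 13.6 (Cpt2 KO) and 8.65 and 9.63 (DKO). Fgg differed by -0.95 ± 0.17 on the centred log2 scale (SE; adjusted p = 0.00756). F11, the precursor of factor XIa, was lower at its start-site interval with folds of 17.9 and 14.2 (WT), 16.9 and 20.8 (Ppara KO), 9.44 and 8.76 (Cpt2 KO) and 9.48 and 16.8 (DKO). F11 differed by -0.96 ± 0.19 on the centred log2 scale (SE; adjusted p = 0.00966); Klkb1 (plasma prekallikrein), its neighbour, had folds of 12.2 and 7.67 (WT), 11.1 and 18.6 (Ppara KO), 6.93 and 7.44 (Cpt2 KO) and 8 and 7.6 (DKO). Klkb1 differed by -0.93 ± 0.23 on the centred log2 scale (SE; adjusted p = 0.0213; not called without WT 1, Cpt2 KO 1, Ppara KO 2 or DKO 2). These intervals of F11 and Klkb1 were not the strongest of their genes, so neither gene is among the 6. Both overlapped an H3K9ac interval in the WT and not in the Cpt2 KO liver, with 1 liver each. Overlap in the WT liver alone occurred at 20 of all 505 start-site losses. At the printed promoters of Hmgcs1, Mlxipl and Insig1 the interval overlapped H3K9ac in both livers. Kng1 was lower at -1.10 (not called when any library except Cpt2 KO 1 was left out), with 1 Cpt2 KO liver at 23 and the other at 4.78, and Serpina1a at -0.80; the Serpina1 genes are near-identical copies whose reads are uncertain.

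Of 18 acute phase and complement genes 4 were lower (2 after quantile normalization, 1 without Cpt2 KO replicate 1 or either Ppara KO replicate, 2 without WT replicate 2, Cpt2 KO replicate 2 or DKO replicate 1): Fgg, Itih4 (-0.78, not called when any library except WT 1, Cpt2 KO 2 or DKO 2 was left out), the mannose-binding lectin Mbl1 (-0.63, not called when any library except WT 1, WT 2 or DKO 1 was left out) and Itih3 (-0.60, not called when any library except DKO 2 was left out). Of 16 metal genes 4 were lower (3 after quantile normalization, 2 without Ppara KO replicate 1). Tfr2, the iron-sensing transferrin receptor of hepatocytes, had folds of 22.5 and 21.5 (WT), 16.3 and 19 (Ppara KO), 11.1 and 8.92 (Cpt2 KO) and 14.7 and 10.3 (DKO). Tfr2 differed by -1.10 ± 0.18 on the centred log2 scale (SE; adjusted p = 0.00535). Cp, the ferroxidase ceruloplasmin, had 21.1 and 17.8 (WT), 17.6 and 20.1 (Ppara KO), 10.2 and 7.8 (Cpt2 KO) and 16.8 and 9.88 (DKO). Cp differed by -1.10 ± 0.21 on the centred log2 scale (SE; adjusted p = 0.00856). At both, and at Hjv, the BMP co-receptor hemojuvelin (not its strongest interval, -1.20), all Cpt2-null livers were below all intact ones. Trf (transferrin) and the zinc and iron carrier Slc39a14 were lower at -0.69 (not called without Ppara KO 1) and -0.45 (not called when any library except Cpt2 KO 2 or DKO 2 was left out). Mt1, the metal-binding metallothionein, went the other way at an interval 2388 bases from its body that was not its strongest. The folds there were 7.7 and 6.1 (WT), 10.4 and 11.3 (Ppara KO), 16.7 and 19.2 (Cpt2 KO) and 19.9 and 27.2 (DKO). Mt1 differed by 0.98 ± 0.18 on the centred log2 scale (SE; adjusted p = 0.00756).

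Amino acid breakdown and the urea cycle had 5 of 24 members lower and 1 higher (4 and 1 after quantile normalization, and 0 lower without Cpt2 KO replicate 1, 1 without WT replicate 2, 2 without Ppara KO replicate 1 or DKO replicate 2, and 3 without Cpt2 KO replicate 2, Ppara KO replicate 2 or DKO replicate 1). The uncentred split was the opposite, 7 higher and 0 lower. Nags, which makes the activator of the urea cycle, was lower at -0.70 (not called without WT 2, Cpt2 KO 1, Ppara KO 1 or DKO 1), Glud1 (glutamate dehydrogenase) at -0.69 (not called without Cpt2 KO 1), Bckdha (branched-chain keto acid dehydrogenase) at -0.68 (not called when any library except Ppara KO 1 or DKO 1 was left out) and Gls2 (liver glutaminase) at -0.62 (not called when any library except WT 1 or Ppara KO 2 was left out). Hgd, of tyrosine breakdown, was higher, with folds of 17.1 and 15.4 (WT), 17.9 and 17.4 (Ppara KO), 34.2 and 28 (Cpt2 KO) and 35.8 and 26.8 (DKO). Hgd differed by 0.60 ± 0.16 on the centred log2 scale (SE; adjusted p = 0.0264; not called when any library except WT 1 or DKO 2 was left out). The list's median differed in sign between the pairs, -0.35 with Ppara and 0.15 without, a difference that was not tested.

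Glucose genes showed few calls by their strongest interval. In gluconeogenesis, Creb1, the factor that answers glucagon, was higher, with folds of 9.9 and 14 (WT), 9 and 8.38 (Ppara KO), 20.7 and 19.8 (Cpt2 KO) and 18.4 and 24.8 (DKO). Creb1 differed by 0.77 ± 0.16 on the centred log2 scale (SE; adjusted p = 0.0116), all Cpt2-null livers above all intact ones. Irs2, an insulin receptor substrate induced by fasting, was lower at -0.59 (not called without Cpt2 KO 2, Ppara KO 2 or DKO 2); 1 of 19 was higher and 1 lower. Weaker intervals near Pck1 and G6pc, the 2 signature enzymes of glucose production, were lower at -0.74 (not called when any library except WT 1, Cpt2 KO 2 or DKO 2 was left out) and -0.91 (not called when any library except WT 1, Ppara KO 1 or DKO 1 was left out). Pcx, the pyruvate carboxylase that opens the pathway, had 1 weaker interval higher (0.69, not called without Cpt2 KO 1, Ppara KO 1 or DKO 2) and 3 lower, -0.75 (not called when any library except WT 1 was left out), -0.73 (not called when any library except WT 2 was left out) and -0.63 (not called when any library except WT 2 or DKO 1 was left out). In glycolysis Pkm (pyruvate kinase M) was higher by 0.67 (not called when any library except WT 1 or Ppara KO 1 was left out) and Ldha (lactate dehydrogenase) lower at -0.54 (not called when any library except WT 1, Cpt2 KO 1 or Ppara KO 2 was left out), of 19. Both were lost without the variance trend. Without centring 5 members were higher and 0 lower, beside 1751 and 141 of all 8985 genes. Weaker intervals were higher at Pfkfb2 (0.61, not called when any library except WT 1, Ppara KO 2 or DKO 1 was left out) and lower at Pfkfb3 (-1.02), which both set the level of a glycolytic activator, at the glucose carrier Slc2a2 (-0.88, not called without WT 2, Cpt2 KO 1 or Ppara KO 2) and at the enolase Eno1 (-1.32).

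Clock genes had 2 of 16 lower. Rora, a nuclear receptor that activates Bmal1, was lower at -0.87 at its strongest interval, with folds of 33.2 and 36.2 (WT), 19.3 and 21.2 (Ppara KO), 11.7 and 18.8 (Cpt2 KO) and 19.7 and 21.5 (DKO), and higher by 0.59 (not called when any library except WT 2 was left out) at another. At the first, both WT livers were above the other 6. Of the pericentral genes, Notum, which removes the lipid from Wnt ligands, had folds of 23.4 and 37 (WT), 9.38 and 12.5 (Ppara KO), 9.64 and 14.5 (Cpt2 KO) and 7.2 and 12.5 (DKO). Notum differed by -1.02 ± 0.21 on the centred log2 scale (SE; adjusted p = 0.0115); 2 of 18 pericentral and 1 of 19 periportal genes were lower. Weaker intervals were higher at Aldh1a1, a retinal dehydrogenase (0.66, not called when any library except WT 1 was left out), and Igfbp2, a binding protein of insulin-like growth factors (0.54, not called when any library except WT 2 was left out), and lower at Gulo, of vitamin C synthesis (-0.98). Scarb1 was the 1 of 16 apolipoprotein and VLDL genes, at -0.80.

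Enzymes that write or erase acetyl groups, or supply acetyl-CoA, had 3 of 24 lower (1 without either Cpt2 KO replicate or Ppara KO replicate 1). Besides Acss2, Hdac5, a class II deacetylase, was lower, with folds of 19.3 and 27.4 (WT), 14.3 and 12.3 (Ppara KO), 8.23 and 11.6 (Cpt2 KO) and 12.9 and 13.7 (DKO). Hdac5 differed by -0.88 ± 0.18 on the centred log2 scale (SE; adjusted p = 0.0118; not called without Cpt2 KO 1). The third was the acetyltransferase Kat2b, at -0.50 (not called when any library except WT 1 or DKO 1 was left out). At Hdac5 and Kat2b both WT livers were above the other 6. Stress genes were called in both directions. In the integrated stress response the amino acid carriers Slc7a5 (0.60, not called when any library except WT 1 was left out) and Slc7a1 (0.69, not called when any library except WT 2 or Ppara KO 1 was left out) were higher and the glutathione-degrading Chac1 (-0.70, not called when any library except DKO 2 was left out) lower, of 13; Chac1 missed the threshold after quantile normalization (adjusted p = 0.0647). Of the 19 Nfe2l2 targets the quinone reductase Nqo1 was higher, 0.61 (not called whichever of the 8 libraries was left out), and Gclm, of glutathione synthesis, lower, -0.66. Of 21 early genes, Egr1 (-0.85) and Jund (-0.68, not called when any library except Ppara KO 2 was left out) were lower, while weaker intervals of the phosphatase gene Dusp1 (0.61, not called when any library except WT 1 was left out) and of Klf6 (0.54, not called when any library except WT 1 was left out) were higher. Dnaja3, a mitochondrial co-chaperone, was the 1 of 14 in its list, at -0.70 (not called when any library except Cpt2 KO 1 was left out).

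No member was called by its strongest interval in 5 further lists: xenobiotic P450s (14 genes, 6 unadjusted), conjugation enzymes (17, 1), nuclear receptors (18, 2), p53 targets and cell cycle genes (13, 2) and lysosome and autophagy (19, 3). The unadjusted count over all 8985 genes was 2508. Their lowest p values were at Cyp2d9 (-0.51, adjusted p = 0.0566), Gstp1 (-0.50, 0.0516), Nr1h4 (-0.39, 0.0596), Gadd45a (-0.69, 0.0638) and Tfeb (-0.59, 0.0535). Weaker intervals of some of these genes were called, as at the autophagy receptor Sqstm1 (-1.17), the stress sensor Gadd45b (-1.29), the p53 inhibitor Mdm2 (higher, 0.72), the nicotinamide methyltransferase Nnmt (higher, 0.70, not called when any library except WT 1 or Cpt2 KO 2 was left out), the P450 gene Cyp2c39 (higher, 0.91, not called without Cpt2 KO 1, Ppara KO 2 or DKO 2) and the retinoic acid receptor Rara (-1.14).

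Most measured markers of endothelial cells and macrophages had a centred difference above 0, with few of them called. Of 13 endothelial markers, 11 had a difference above 0 and 2 were called higher (3 after quantile normalization, 0 without the variance trend, and 0 without WT replicate 2, either Cpt2 KO replicate, Ppara KO replicate 2 or DKO replicate 2, and 1 without Ppara KO replicate 1 or DKO replicate 1). Pecam1, a junction protein of endothelium, had folds of 18.8 and 13.6 (WT), 23.5 and 19 (Ppara KO), 35 and 35 (Cpt2 KO) and 28.4 and 41.1 (DKO). Pecam1 differed by 0.65 ± 0.17 on the centred log2 scale (SE; adjusted p = 0.0251; not called when any library except WT 1, Ppara KO 1 or DKO 1 was left out), and Cdh5 (VE-cadherin) was higher by 0.52 (not called when any library except WT 1 was left out). Weaker intervals were higher at Pecam1 (0.90, not called without Cpt2 KO 1), Stab2 (0.80, not called without WT 2, Cpt2 KO 1, Ppara KO 2 or DKO 1) and Tek (0.78, not called when any library except WT 1 or DKO 2 was left out) and lower at Eng (-0.67, not called when any library except WT 1 was left out). Stab2, Tek and Eng encode endothelial receptors. Of the 17 Kupffer cell and macrophage markers 7 were measured, all above 0, and C1qa, of the complement C1 complex that macrophages make, was called, with folds of 7.24 and 8 (WT), 8.96 and 8.57 (Ppara KO), 16 and 12.7 (Cpt2 KO) and 18.1 and 19.7 (DKO). C1qa differed by 0.74 ± 0.16 on the centred log2 scale (SE; adjusted p = 0.0156; not called without Cpt2 KO 1 or Ppara KO 2). Without centring, the summed fold of the measured endothelial markers was 239.8 to 278.6 in Cpt2-null and 166.4 to 193.2 in intact livers. That of the macrophage markers was 84.9 to 120.2 and 56.1 to 68.5. Adgre1 and Marco, defining macrophage markers, had no interval called in all 8 livers, and no marker of the 17 lymphocyte and neutrophil genes had one. Stellate (3 of 15 measured) and bile duct (2 of 12) markers had no call. Hepatocyte markers had 14 of 15 measured, with 2 lower (Serpina1a and Trf) and summed folds of 263.4 to 352.1 against 244.0 to 272.9. The summed folds were not centred, and the median deposited fold was itself higher in the Cpt2-null libraries. After centring, the median difference was 0.31 for the endothelial, 0.44 for the macrophage and -0.042 for the hepatocyte markers. In whole liver, fewer or more cells of a type and less or more of the mark per cell cannot be told apart, and the part of cell composition in the differences was not tested.

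2 further marks were read at the same intervals. H3K4me1 was compared, with no call, at 9679 intervals, and its difference correlated with that of H3K27ac at r = 0.34 over intervals. It had the same sign at 80.8% of the 271 intervals measured among those higher, at 73.3% of the 1017 among those lower and at 58.0% of the 8391 not called. Its size was smaller, with medians of 0.25 and -0.14. For gains the share with the same sign was 85.7% of 223 distal intervals and 58.3% of 48 near a start site. The H3K4me1 difference was thus below 0 at 14.3% and 41.7% of these. Among intervals not called it was below 0 at 43.3% of 6013 distal and 60.3% of 2378 near a start site.

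H3K9ac, a second acetylation mark of active genes, had 1 library for WT (39287 intervals) and 1 for Cpt2 KO (41122 intervals), so it has no replicate. Of the 844 distal intervals that were lower for H3K27ac, 74.5% overlapped a WT and 58.4% a Cpt2 KO H3K9ac interval. Of the 651 distal intervals that were higher, 32.3% and 42.5% did, and of the 9625 not called 57.1% and 55.8%. Overlap in the WT liver alone occurred at 150 distal losses and in the Cpt2 KO liver alone at 14, and at distal gains at 25 and 92. Near start sites the share that overlapped H3K9ac ran from 93.1% to 98.6% in each liver taken alone. There, overlap in the WT liver alone occurred at 20 of 505 losses and in the Cpt2 KO liver alone at 0. At 245 gains the counts were 1 and 10, and at 6411 intervals not called 61 and 56.

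**Figure D5:**
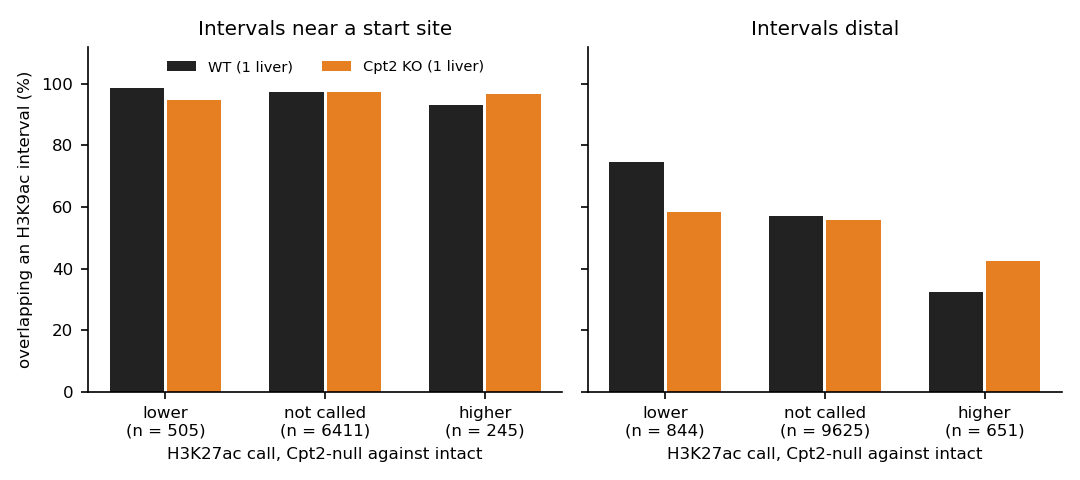
Percent of H3K27ac intervals (vertical) that overlap an H3K9ac interval of the WT (black) or Cpt2 KO (orange) liver, for intervals called lower, not called or called higher in Cpt2-null livers, near a start site (left) and distal (right); each bar is 1 liver. Distal losses fall from 74.5% to 58.4% and distal gains rise from 32.3% to 42.5%, while intervals not called differ by little.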

How the data were processed

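H3K27ac was profiled by ChIP-seq in 8 fasted livers, and H3K4me1 (8 livers) and H3K9ac (2 livers) were read at the same places. Reads were aligned with BWA and peaks called with MACS2 2.1.0, per the submitters' processing notes. The narrowPeak files deposited by the authors give each peak's fold enrichment over background, a ratio, and its -log10 q, and peaks were called per library. Read depth is not given in the sources used here, so no counting interval is given. The libraries held 44454 to 48929 peaks. The highest fold per interval of the authors' consensus list was taken as log2 and centred on each library's median, and limma 3.58.1 (R 4.3.3) was fitted with 4 genotype means and a variance trend, with Benjamini-Hochberg adjustment over 18281 intervals. The fit was tested on simulated data. An interval was assigned to the nearest protein-coding gene body (RefSeq, GRCm38.p6) within 10 kb of its middle.

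Named genes are the 12 each way that follow the first 3 intervals among calls under both scalings, up to 4 members with the largest difference per list (the lowest p where none passed), Cpt2 and Ppara. Others that are named were picked after their values were seen. The members, lists and tests were chosen with earlier results of these data known, so list counts are descriptions. Where the labels do not give separate cohorts, p-values measure the spread between these livers. Peaks set a floor on every fold, so intervals with a peak in fewer than 8 libraries were left out. Alternatives were quantile normalization, no centring, a stricter peak threshold (-log10 q of 10), a 50% overlap, no trend, a replicate block, smallest peak width as covariate, an additive model, filling of intervals called in at least 6 libraries, and leaving out each library. The sterol element was added after the calls were seen. Some genes that the rule names are not reported here.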

Additional observations from a re-analysis of the deposited data

Results flagged for a closer look

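At 1 interval the Cpt2 difference itself differed between livers with and without Ppara. The interval, chr6:70812513-70815280, lies 21721 bases from the body of Rpia, which encodes an isomerase of the pentose phosphate pathway. Its folds were 3.78 and 4.62 (WT), 22.8 and 25.1 (Ppara KO), 27 and 24.9 (Cpt2 KO) and 35.2 and 35.4 (DKO). The WT livers were thus low and the other 6 high. The centred log2 difference was 2.41 between Cpt2 KO and WT and 0.25 between DKO and Ppara KO, and the second minus the first was -2.16 (limma, adjusted p = 0.0421). H3K9ac had an interval there in the Cpt2 KO liver and not in the WT liver, with 1 liver each. The call rested on nearly every library: it was lost without any 1 of 7 of the 8, with adjusted p values of up to 0.187, and stayed only without WT replicate 1 (0.0245), while the difference itself ran from -2.25 to -2.06. It was also lost without the variance trend (0.123), with the replicate block (0.0509) and with the smallest peak width as covariate (0.201), and the interval was not among those tested at -log10 q of at least 10.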

How the results depend on the processing

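The count of intervals called between Cpt2-null and Cpt2-intact livers (2245) was 3936 without centring, 1193 in an additive model, 3787 of 25368 with filling, 0 with the smallest peak width as covariate (1426 at an unadjusted p under 0.05), and 691 to 2492 without each library in turn. For Cpt2 KO against WT (2469) it was 4221 with filling, 0 with the width covariate and 167 to 2686 without each library. For DKO against Ppara KO (1) it was 2 after quantile normalization, 14 without centring, 6 with filling, 0 with the width covariate (1642 unadjusted) and 0 to 4 without each library. For the difference between the pairs (1) it was 0 without the variance trend (2671 unadjusted), with the block (3015), with the stricter peak threshold (2536) and with the width covariate (1888), 8 without centring, 13 with filling and 0 to 7 without each library. The width covariate is nearly the same split as Cpt2 state. It also turned the sign of 7 named intervals: Ndst1 to 0.37, Acsl3 to 0.18, Slc7a5 to -0.099, Gls2 to 0.34, Nr2f6 to 0.0070, Ucp2 to -0.011 and Tfeb to 0.52. The cause was not tested. Same-numbered livers correlated at -0.065 to 0.17 after removal of group means, so the numbers were not taken to pair them; the replicate block gave 2533, 2768 and 1 calls. Of 93 named intervals 79 were called, and 40 of these were called without each library in turn. Quantile normalization ended the call of 6, and the 50% overlap changed none. The folds carry no read depth, which limits what a small difference can show.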
